A study of Rattus norvegicus with 8 samples.

Results

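The heat shock chaperones described here are 7 rat genes, Hspa8, Dnajb1, Hsph1, Bag3, Hspb1, Hspb8 and Hsp90aa1, taken by their NCBI gene identifiers from the 22601 genes measured in each library. All 7 were measured in all 8 libraries, and all 7 passed the filter on low values (a mean of at least 0.1 FPKM over the 8 libraries), as did 15593 genes in all. The values are FPKM, the fragments of a gene scaled to its transcript length and to the mapped fragments of its library, from RNA sequencing of the hippocampus, with 1 library per rat. All rats were wild type Wistar rats of 180 to 220 g at purchase, and neither their age nor their sex was given in the sources used here. The Con. group (3 rats) received saline and later the solvent of Q808. The PTZ group (3 rats) was kindled with pentylenetetrazole (PTZ), a GABA-A receptor antagonist that provokes seizures, by 14 intraperitoneal injections of 35 mg/kg, 48 h apart over 28 days, with 60 mg/kg on the last day, and then received the solvent of Q808. The Q808 group (2 rats) was kindled in the same way and then received Q808, an anticonvulsant candidate, by gavage at 30 mg/kg daily for 28 days. PTZ and Q808 rats also received a sub-convulsive dose of PTZ on the day after the last Q808 dose and were decapitated after their seizures had been scored, while Con. rats received no PTZ at any time. The comparisons below therefore ask how chaperone transcripts stood after kindling with a fresh PTZ dose, and whether they stood differently in kindled rats given Q808.

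Chaperones bind unfolded stretches of other proteins and keep them from aggregating until they fold or are degraded. Hspa8 (Hsc70) is the abundant constitutive Hsp70 of the cytosol, Dnajb1 is an Hsp40 co-chaperone that delivers substrates to Hsp70 and stimulates its ATPase, and Hsph1 (Hsp110) and Bag3 act on Hsp70 as nucleotide exchange factors. Bag3 also joins Hsp70 to the small heat shock proteins Hspb8 and Hspb1 in chaperone-assisted autophagy, and Hsp90aa1 is the inducible cytosolic Hsp90. Several of these genes are classical targets of the transcription factor Hsf1, which binds heat shock elements made of alternating inverted GAA and TTC units. In the brain, Hspa8 and Hsph1 are strongly expressed by neurons, whereas the small heat shock proteins are known mainly from glia and vessel walls.

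The promoter stretches below are shown because Hsf1 sites are what this gene group is known to have in common. RefSeq (build GRCr8) gives a promoter window of 250 bases before and 50 bases after the gene start for 6 of the 7 members, the exception being Hsp90aa1. Each line prints, 5′ to 3′ on the gene strand, bases upstream of the start, 250 for Hspa8, Hsph1, Bag3 and Hspb1, and the last 60 for Hspb8 and Dnajb1. Capitals mark each match to the 2-unit heat shock element, GAANNTTC or TTCNNGAA, each of which is its own reverse complement, and matches may overlap.
Hspa8 (chr8:50080264-50080513, + strand): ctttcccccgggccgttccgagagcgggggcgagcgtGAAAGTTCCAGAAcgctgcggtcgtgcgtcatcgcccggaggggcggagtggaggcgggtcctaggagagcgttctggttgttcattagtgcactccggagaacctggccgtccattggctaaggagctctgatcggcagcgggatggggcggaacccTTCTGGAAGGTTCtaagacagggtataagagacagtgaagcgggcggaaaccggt
Hsph1 (chr12:10427118-10427367, + strand): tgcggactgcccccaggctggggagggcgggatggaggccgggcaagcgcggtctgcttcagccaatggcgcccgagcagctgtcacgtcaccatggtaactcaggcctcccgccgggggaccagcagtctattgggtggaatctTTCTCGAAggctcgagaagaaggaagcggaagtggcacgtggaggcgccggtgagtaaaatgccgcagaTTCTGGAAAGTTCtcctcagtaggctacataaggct
Bag3 (chr1:192533210-192533459, + strand): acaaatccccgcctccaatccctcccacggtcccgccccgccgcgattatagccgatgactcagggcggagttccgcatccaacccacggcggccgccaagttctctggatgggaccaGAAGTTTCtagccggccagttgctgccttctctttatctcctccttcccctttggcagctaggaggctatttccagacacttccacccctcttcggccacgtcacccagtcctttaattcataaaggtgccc
Hspb1 (chr12:26432302-26432551, - strand): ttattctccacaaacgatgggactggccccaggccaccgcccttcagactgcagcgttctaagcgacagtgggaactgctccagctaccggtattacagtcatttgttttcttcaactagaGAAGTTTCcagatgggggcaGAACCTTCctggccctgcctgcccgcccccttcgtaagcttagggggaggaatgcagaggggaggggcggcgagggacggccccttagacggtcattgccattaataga
Hspb8 (chr12:45837248-45837307, + strand): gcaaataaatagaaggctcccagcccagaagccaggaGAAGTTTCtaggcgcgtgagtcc
Dnajb1 (chr19:41431142-41431201, - strand): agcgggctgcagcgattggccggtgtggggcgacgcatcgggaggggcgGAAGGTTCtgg

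All 6 windows held at least 1 such 2-unit match, compared with 15.9% of all 33469 promoter windows in the same table and with 16 of 56 windows (28.6%) of the other chaperone genes considered below. Among those, the inducible cytosolic chaperones, the list most like the members, held it in 8 of 12 windows (66.7%), and the endoplasmic reticulum chaperones in 0 of 11. Bag3 and Hspb8 held 1 match, GAAGTTTC, at -132 and -23 from the start. Hspb1 held 2, at -129 and -109, the first with the same letters as in Bag3. Dnajb1 held 1 at -11 and 1 after the start, GAAGCTTC at 18. Hsph1 and Hspa8 were the only members with a 3-unit element, in which overlapping 2-unit matches share a unit. It read TTCTGGAAAGTTC at -36 in Hsph1, and in Hspa8 it read GAAAGTTCCAGAA at -213 and TTCTGGAAGGTTC at -55. A 3-unit element was present in 0.798% of all windows, and its share in the members (2 of 6, 33.3%) was also that of the inducible cytosolic chaperones (4 of 12). These are matches of letters, and no binding was measured. Members and list genes were counted with 1 window per gene, while the 33469 windows were counted without that limit.

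**Figure D1:**
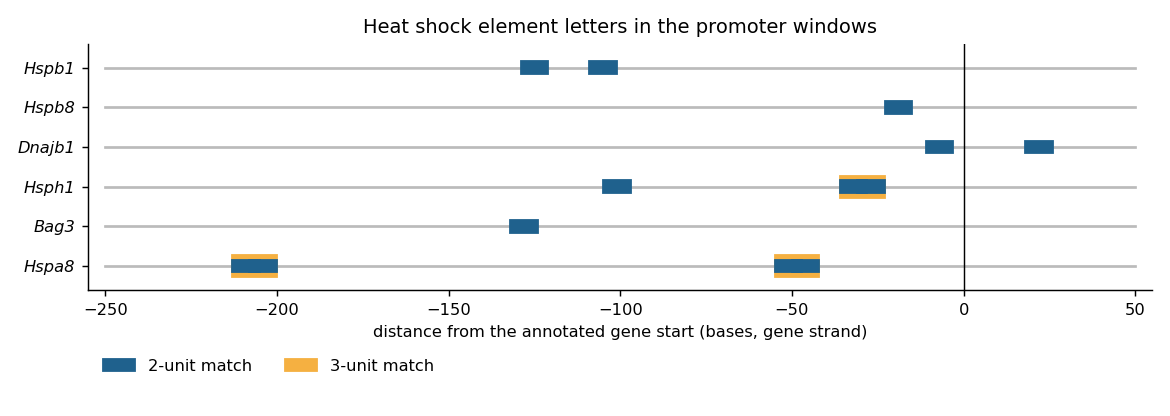
Position of heat shock element letters in the promoter windows of the 6 members with a RefSeq window. The horizontal axis is the distance in bases from the gene start, blue blocks are 2-unit matches and orange blocks 3-unit matches. Hspa8 holds 3-unit elements at -213 and -55 and Hsph1 holds one at -36, while Bag3 and Hspb8 hold a single 2-unit match each.

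Before the results, the libraries themselves need describing, since 3 of the 8 stood apart. Summed over 5 striatum markers (Drd1, Drd2, Adora2a, Ppp1r1b and Rgs9), the FPKM reached 1203 in Con.-3, while PTZ-3 had 611 and Q808-1 had 622, against 46.0 to 61.9 in the other 5 libraries. The summed FPKM of 6 dentate granule cell markers ran the other way, at 8.96 to 9.84 in those 3 libraries and 68.0 to 113 in the other 5. Their mean log2(FPKM + 0.1) differed less, at -0.63 to -0.60 against 0.52 to 0.91, and 2 of the 6 were at 0 in some library. The labelled hippocampus thus had lower dentate markers in 3 libraries, which are called striatum-rich here, and the other 5 (Con.-1, Con.-2, PTZ-1, PTZ-2 and Q808-2) striatum-poor. Each group held exactly 1 striatum-rich library, of 3 in Con. and in PTZ but of 2 in Q808. The Q808 comparisons over all libraries are therefore not balanced in tissue. Each comparison is given over all libraries and again within the striatum-poor ones, where the Q808 group is a single rat. In bulk tissue, fewer cells of a type and less RNA per cell cannot be told apart. Whole reads recovered from the FPKM steps came to 12129905 to 16868487 per library, and the members rested on 69 (Hspb1 in Con.-3) to 25047 reads (Hspa8 in PTZ-2).

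Hspa8 was the most abundant member, with a mean of 534 FPKM over the 8 libraries, followed by Hsph1 with 163 FPKM. The lowest Hspa8 value, 348 FPKM, lay above the highest Hsph1 value, 281 FPKM, and the lowest Hsph1 value, 88.7 FPKM, lay above every value of the remaining 5 members. Those 5 followed in the order Bag3 (21.8 FPKM), Dnajb1 (21.1), Hspb8 (17.0), Hsp90aa1 (14.5) and Hspb1 (10.6), with ranges that overlapped between all neighbours in that order. Bag3 varied most, with a highest library 7.54 times its lowest, and Hspb8 varied least, with 1.98 times. RefSeq lists 33 loci named as Hspa8 pseudogenes, of which 1 is among the measured genes, and 16 loci named as Hsp90aa1 pseudogenes, of which 0 are. Reads of these genes that map equally well to a copy could be counted elsewhere, which adds uncertainty to the levels of Hspa8 and Hsp90aa1. Copies under other names were not searched for, in these or in the other members.

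**Figure D2:**
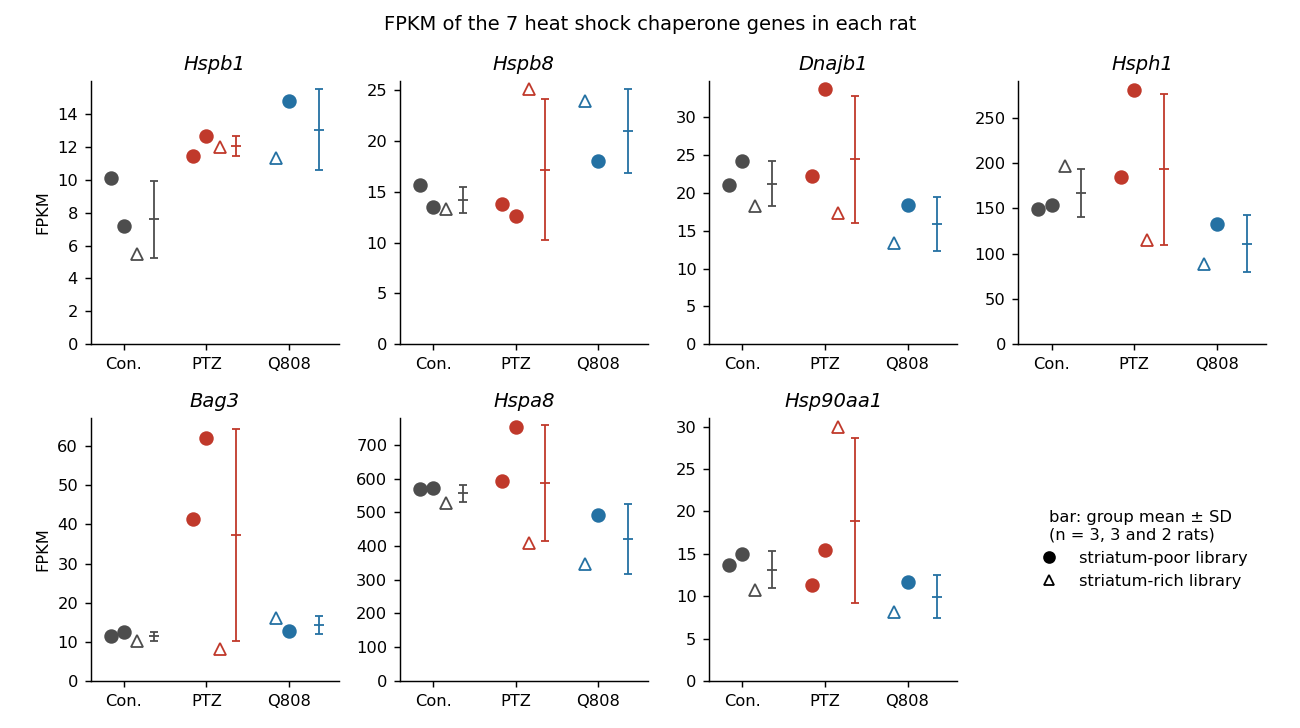
FPKM of each member in each rat (linear axes from 0). Filled circles are striatum-poor and open triangles striatum-rich libraries, and the bars give the group mean and SD (n = 3, 3 and 2). Bag3 stands at 41.5 and 62.1 FPKM in 2 PTZ rats and at 8.23 to 16.01 FPKM in the other 6, while Hspb1 is lower in every Con. rat than in any PTZ or Q808 rat.

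Over all libraries, Hspb1 was the 1 member of 7 that passed the test between the PTZ and Con. groups, for which limma on log2(FPKM + 0.1) had to give an unadjusted p under 0.05 and the groups had to lie over 1.5-fold apart. Over all genes 2.53% passed that test. Hspb1, the small heat shock protein known as Hsp27 or Hsp25, measured 10.1, 7.18 and 5.49 FPKM in the Con. rats and 11.5, 12.7 and 12.01 FPKM in the PTZ rats. The groups did not overlap, which was so for this member alone and for 9.15% of all genes. Hspb1 was higher in PTZ by 0.70 on the log2 scale (SE 0.23, 95% interval 0.15 to 1.25, 1.63-fold), with a Benjamini-Hochberg adjusted p of 0.999 from limma over all genes, so the call does not survive the correction. The call was also lost when Con.-2 (log2 difference 0.68), Con.-3 (0.49) or PTZ-2 (0.67) was left out. These levels came from 69 to 178 reads, so that the counting interval alone (95%, exact Poisson) ran from 8.43 to 12.01 FPKM in Con.-1 and from 9.73 to 13.4 FPKM in PTZ-1. Those intervals overlap, while that of Con.-3, 4.27 to 6.95 FPKM, lies below both.

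Bag3 showed the widest difference between the PTZ and Con. groups and did not pass over all libraries. It measured 11.4, 12.5 and 10.3 FPKM in the Con. rats, and 41.5, 62.1 and 8.23 FPKM in the PTZ rats. PTZ-1 and PTZ-2 lay far above every Con. rat, and PTZ-3, the striatum-rich library, lay below all of them. The log2 difference was 1.28 (SE 0.68, 95% interval -0.32 to 2.88, Benjamini-Hochberg adjusted p = 0.999 from limma). The same difference passed with the replicate number as a block, which pairs the striatum-rich PTZ-3 with the striatum-rich Con.-3, and with the striatum set as a term. Without PTZ-3 it was 2.15 and passed as well, but that fit keeps the striatum-rich Con.-3 and is not balanced in tissue. Calls over all genes also rose, from 395 to 616 with the block, 672 with the term and 1135 (7.28%) without PTZ-3.

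The other Hsp70 partners and Hspa8 itself did not pass between the PTZ and Con. groups. Hsph1 measured 149, 154 and 197 FPKM in Con. and 184.5, 281 and 115 FPKM in PTZ, a log2 difference of 0.13 (SE 0.31). Dnajb1 measured 21.1, 24.3 and 18.3 FPKM in Con. and 22.2, 33.7 and 17.4 FPKM in PTZ, a difference of 0.16 (SE 0.25). Hspa8 measured 569.6, 573 and 528 FPKM in Con. and 594, 754 and 410 FPKM in PTZ, a difference of 0.03 (SE 0.23). In all 3 genes PTZ-2 was the highest and PTZ-3 the lowest of the 6 libraries, and the PTZ rats spanned the Con. range on both sides.

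Hspb8 and Hsp90aa1 differed from the rest of the members in where they were high. Hspb8 measured 15.6, 13.5 and 13.3 FPKM in Con. and 13.8, 12.7 and 25.1 FPKM in PTZ (log2 difference 0.21, SE 0.27), and Hsp90aa1 measured 13.7, 14.9 and 10.7 FPKM in Con. and 11.3, 15.4 and 29.9 FPKM in PTZ (0.42, SE 0.35). Both were highest in PTZ-3, the PTZ library in which Bag3, Hsph1, Dnajb1 and Hspa8 were lowest. Hspb8 also stood at 23.9 FPKM in Q808-1 and 18.1 FPKM in Q808-2, so its 3 highest libraries were PTZ-3, Q808-1 and Q808-2. The summed FPKM of 5 vascular smooth muscle markers (Acta2, Tagln, Myh11, Cnn1 and Myl9, none of them at 0) was 131 in PTZ-3, 84.9 in Q808-1 and 112 in Q808-2, against 29.9 to 50.7 in the other 5 libraries, and the sum of 6 endothelial markers, none of them at 0, was 180.2, 210.2 and 131 in those 3 against 86.5 to 118 in the other 5. The part of either marker list in the Hspb8 values was not tested. Hsp90aa1 did not share this order, since its 2 Q808 values, 8.18 and 11.7 FPKM, were among the lower ones.

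Between the Q808 and PTZ groups, 0 of 7 members passed in limma over all libraries (0 had an unadjusted p under 0.05, and limma-voom on the recovered reads also called 0), where 1.92% of all genes passed. No member's groups were free of overlap, against 15.6% of all genes. Bag3 measured 16.01 and 12.6 FPKM in the Q808 rats, between the low and the high PTZ values, a log2 difference of -0.96 with a 95% interval of -2.92 to 1.00. Hsph1 measured 88.7 and 133 FPKM in the Q808 rats, a difference of -0.74 (95% interval -1.70 to 0.23). Dnajb1 measured 13.3 and 18.4 FPKM, a difference of -0.59 (-1.35 to 0.18), and Hspa8 measured 348 and 493 FPKM, a difference of -0.46 (-1.26 to 0.35). The Hsp90aa1 values of 8.18 and 11.7 FPKM gave a difference of -0.82 (-1.85 to 0.21). In Hsph1, Dnajb1, Hspa8 and Hsp90aa1, Q808-1 was the lowest of all 8 libraries, while Bag3 was lowest in PTZ-3. Hspb1, at 11.3 and 14.8 FPKM, and Hspb8 were the 2 members with a positive difference, 0.10 and 0.34. The median over the 7 members was -0.59, beside 0.10 over all genes tested, and the PTZ libraries are the same ones that enter the comparison with Con. Without PTZ-3, 4 members passed, namely Bag3 (-1.83), Hsph1 (-1.07) and Dnajb1 (-0.80), which were lower in Q808, and Hspb8 (0.65), which was higher, but then 10.1% of all genes passed too. Without PTZ-1, Hsp90aa1 passed (-1.13).

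Between the Q808 and Con. groups, 1 of 7 members passed, again Hspb1, where 3.46% of all genes passed. Its log2 difference was 0.80 (SE 0.30, 95% interval 0.06 to 1.55, Benjamini-Hochberg adjusted p = 0.901 from limma). Leaving out Con.-2 (0.78), Con.-3 (0.59), Q808-1 (0.99) or Q808-2 (0.61) ended the call, and leaving out Con.-1 did not. The groups did not overlap in 5 of 7 members, Hspb1, Hspb8 and Bag3 being higher and Hsph1 and Hspa8 lower in Q808, against 20% of all genes. Hspb8 had a log2 difference of 0.56 (95% interval 0.10 to 1.01, 1.47-fold), just short of the fold limit, and passed without Con.-1 (0.63) or without Q808-2 (0.76). The other non-overlapping members had intervals that included 0, with differences of -0.61 for Hsph1, 0.32 for Bag3 and -0.42 for Hspa8. Without Q808-2, which leaves the striatum-rich Q808-1 alone in its group, 4 members passed: Hspb8, and Dnajb1 (-0.66), Hsph1 (-0.90) and Hspa8 (-0.68), and 11.5% of all genes passed.

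**Figure D3:**
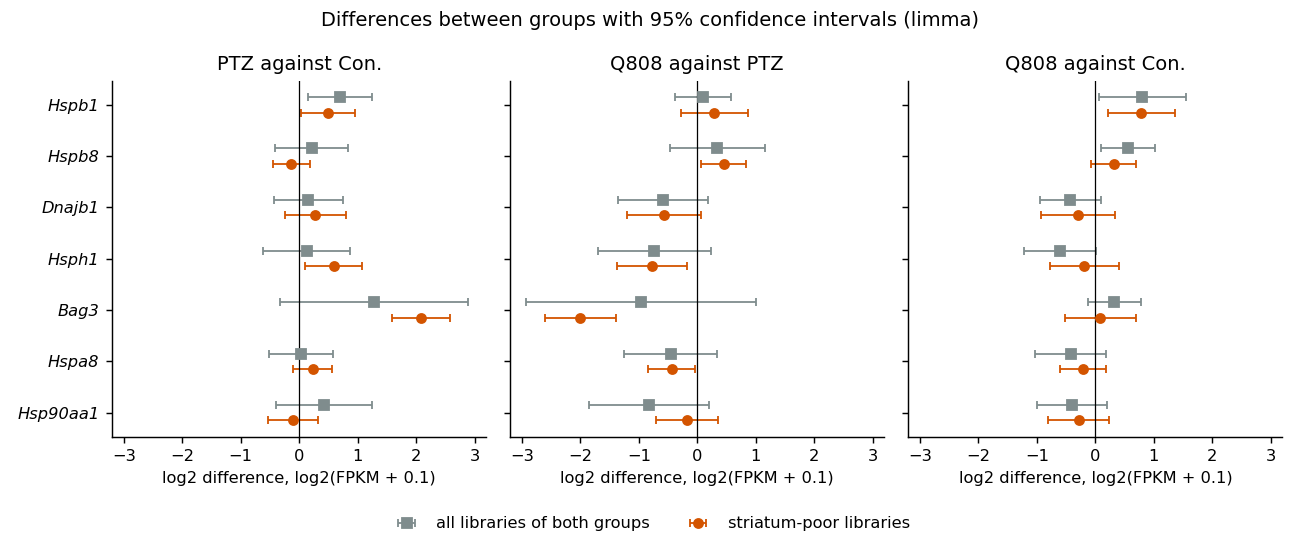
Differences between groups in log2(FPKM + 0.1) for each member, with 95% confidence intervals from limma, over all libraries of both groups (grey squares) and within the striatum-poor libraries (orange circles). In the striatum-poor libraries the Bag3 interval runs from 1.58 to 2.58 for PTZ against Con. and from -2.61 to -1.39 for Q808 against PTZ, and over all libraries both Bag3 intervals include 0.

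Within the striatum-poor libraries, 2 of 7 members passed between PTZ and Con., Bag3 and Hsph1, both higher in PTZ, where 9.82% of all genes passed. Bag3 stood at 41.5 and 62.1 FPKM in PTZ-1 and PTZ-2, against 11.4 and 12.5 FPKM in Con.-1 and Con.-2. The log2 difference was 2.08 (SE 0.20, 4.23-fold, Benjamini-Hochberg adjusted p = 0.0251 from limma), and it stayed past the test in 14 of 14 alternative analyses, between 1.79 and 2.37. Hsph1 stood at 184.5 and 281 FPKM against 149 and 154 FPKM, a difference of 0.59 (SE 0.20, 1.502-fold, Benjamini-Hochberg adjusted p = 0.205 from limma). That call sat on the fold limit and was lost in 6 of 14 alternatives, among them leaving out Con.-1 (0.57), Con.-2 (0.61) or PTZ-2 (0.28). Hspb1 differed by 0.49 (95% interval 0.03 to 0.96, 1.41-fold), under the fold limit, and passed without Con.-1 (0.74). The intervals of the other 4 members included 0, with Hspa8 at 0.23, Dnajb1 at 0.27, Hspb8 at -0.14 and Hsp90aa1 at -0.11. The median over the members was 0.27, beside -0.11 over all genes tested.

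Between Q808-2 and the striatum-poor PTZ rats, the same pair of genes passed in the opposite direction, where 10.4% of all genes passed. With a single Q808 library, the spread here is that of the Con. and PTZ libraries, and Q808-2 is taken to vary as they do. Bag3 stood at 12.6 FPKM in Q808-2, near the 11.4 and 12.5 FPKM of the Con. rats, and the difference from PTZ was -1.999 (SE 0.24, Benjamini-Hochberg adjusted p = 0.0467 from limma). This call held in 13 of 13 alternatives, between -2.29 and -1.71. Hsph1 stood at 133 FPKM, below both PTZ rats and both Con. rats, with a difference from PTZ of -0.77 (Benjamini-Hochberg adjusted p = 0.263), and that call was lost without Con.-2 (-0.77) or without PTZ-2 (-0.47). Hspa8 differed by -0.44 and Hspb8 by 0.45, both less than 1.5-fold. Without PTZ-1, which leaves PTZ-2 alone in its group, Hspa8 differed by -0.61 and Dnajb1 by -0.87. Both comparisons use PTZ-1 and PTZ-2, so a high value in those rats enters each of them. Between Q808-2 and the striatum-poor Con. rats, 1 of 7 members passed, Hspb1 (0.79, SE 0.23, Benjamini-Hochberg adjusted p = 0.701), where 4.53% of all genes passed, and it no longer did without Con.-2 (0.54, 14.8 FPKM against 10.1 FPKM). Bag3 differed there by 0.08, with a 95% interval of -0.53 to 0.69.

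Taken as a sum, immediate early genes, which neurons transcribe within minutes of strong firing, were highest in the libraries in which Bag3 was high. The summed FPKM of Fos, Fosb, Arc, Egr1, Egr4, Junb and Npas4, none of them at 0, was 519.7 in PTZ-1 and 1202 in PTZ-2, against 107 to 368 in the Con. rats, 156 in PTZ-3, 243 in Q808-1 and 199.7 in Q808-2. Not all of these genes followed the sum. Fos, Fosb, Arc and Egr4 were higher in PTZ-1 and PTZ-2 than in every other library. In PTZ-1, however, Egr1 (81.6 FPKM) and Junb (51.6) lay below Con.-3 (148 and 58.7), and Npas4 (1.79) lay below Con.-1 (2.31). PTZ-2, with the highest sum, also had the highest Bag3, Hsph1, Dnajb1 and Hspa8. Con.-3, with the third sum in order at 368, had 10.3 FPKM of Bag3, the second lowest value, and 197 FPKM of Hsph1, the second highest. The part of early gene activity in the Bag3 and Hsph1 results was not tested. The summed FPKM of 6 choroid plexus markers, none of them at 0, also differed within the striatum-poor libraries, at 2533 and 2510 in Con., 408 and 277 in PTZ and 6436 in Q808-2, and its part was not tested either.

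**Figure D4:**
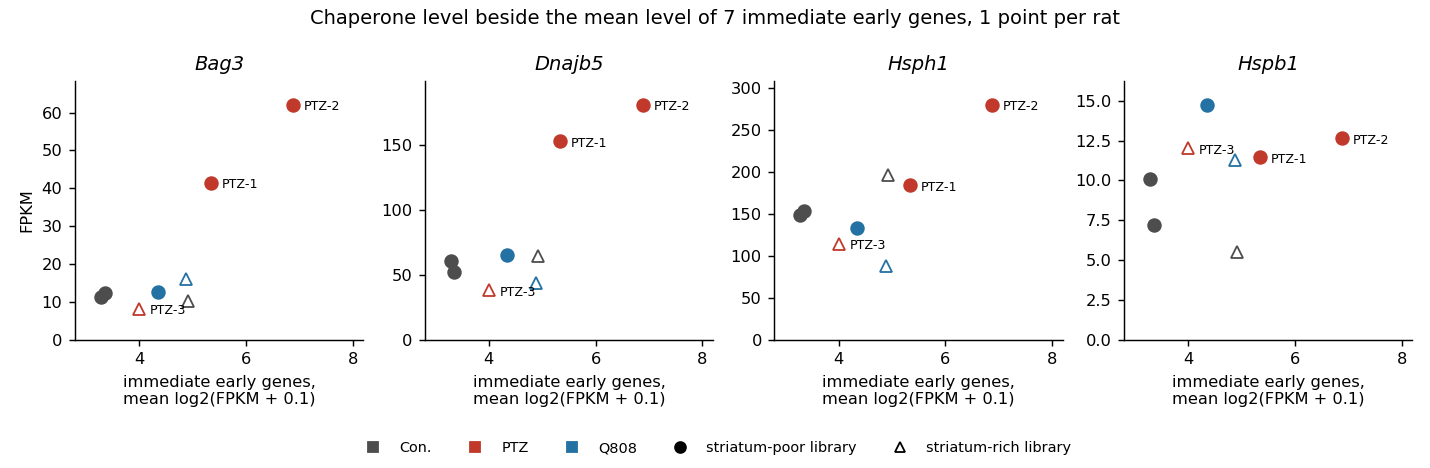
FPKM of Bag3, Dnajb5, Hsph1 and Hspb1 in each rat against the mean log2(FPKM + 0.1) of 7 immediate early genes. PTZ-1 and PTZ-2 lie to the right at 5.34 and 6.88 and are the 2 highest rats for Bag3 and Dnajb5, while for Hspb1 the highest rat is Q808-2 at 4.35.

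The striatum-rich libraries, 1 per group, gave other values for the same contrasts. Between PTZ-3 and Con.-3 the log2 difference of Bag3 was -0.32 against 2.08 in the striatum-poor libraries, that of Hsph1 -0.78 against 0.59, and that of Hspa8 -0.36 against 0.23. Hsp90aa1 went the other way, at 1.48 against -0.11, as did Hspb8, at 0.91 against -0.14. The interaction of group and striatum set had an unadjusted p under 0.05 for these 5 of 7 members, as it had for 22.7% of all genes, and no member reached an adjusted p under 0.05. For Hspb1 the difference was 1.115 in the striatum-rich and 0.49 in the striatum-poor libraries, and for Dnajb1 it was -0.07 and 0.27, with an unadjusted p over 0.05 for the interaction of either gene. The 3 striatum-rich libraries carry the spread of the striatum-poor ones in this fit, since none of them has a replicate. Their oligodendrocyte markers were also higher, with a summed FPKM of 6963 to 13760 against 2681 to 4463.

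The members did not share a single profile over the 8 libraries. After each gene's log2(FPKM + 0.1) was standardized over the libraries, the Euclidean distance between 2 members ran from 0.827 (Dnajb1 and Hspa8) to 5.15 (Hspb8 and Hspa8). Hspa8, Hsph1 and Dnajb1 formed the closest trio, with 0.951 between Hsph1 and Hspa8 and 1.34 between Dnajb1 and Hsph1, and Bag3 lay 2.22 to 2.30 from each of them. Hspb8 was closest to Hspb1 at 2.83, and Hsp90aa1 lay 3.197 or more from every other member. Among 12563 genes with a mean of at least 1 FPKM, the 6 nearest to the members' mean profile were Arf4 (0.500), Mvd (0.553), Hs2st1 (0.614), Armcx5 (0.654), Slc25a3 (0.669) and Akirin1 (0.688), while the members themselves lay 1.45 (Dnajb1) to 4.41 (Hspb8) from it. Arf4, for example, measured 75.6 to 94.95 FPKM in Con., 97.5 to 186 FPKM in PTZ and 67.8 to 87.0 FPKM in Q808. The genes nearest to Bag3 alone, looked up after the values were seen, were Gadd45b (0.473) and Kdm6b (0.546), and the nearest to Hspa8 was Tuba4a (0.371). These distances describe 8 libraries that also differ in tissue composition.

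The wider chaperone network was followed in 6 further lists holding 68 genes, of which 67 passed the filter on low values. Between PTZ and Con. over all libraries, 0 of 67 passed in limma, where 2.53% of all genes passed. Of the 67, 5 had an unadjusted p under 0.05, as had 3.78% of all genes, and limma-voom called 0. The median log2 difference was -0.05, beside -0.04 over all genes. The count was 1 without Con.-2, 1 without Con.-3 and 2 without PTZ-3, where 1.9%, 4.1% and 7.28% of all genes passed. Between Q808 and PTZ, 1 of 67 passed, Sdf2l1 of the endoplasmic reticulum (0.63), where 1.92% of all genes passed. Between Q808 and Con. 1 of 67 passed, the Hsp90 partner Chordc1 (-0.64), where 3.46% of all genes passed. The medians of those comparisons were -0.13 and -0.16, beside 0.10 and 0.04 over all genes. Without Q808-2 the counts were 5 and 11, and the count for Q808 against PTZ was 3 without PTZ-3 and 0 without PTZ-1 or PTZ-2. The calls over all genes rose with them, from 300 to 1301 and from 540 to 1799 without Q808-2, and from 300 to 1569 without PTZ-3. Chordc1 was lost without Con.-1, Con.-2 or Q808-1.

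Within the striatum-poor libraries, the Hsp40 gene Dnajb5 of the constitutive cytosolic list stood beside Bag3. It measured 60.45, 52.5 and 64.8 FPKM in Con., 153, 181 and 38.1 FPKM in PTZ and 43.5 and 65.2 FPKM in Q808, high in PTZ-1 and PTZ-2 and lowest in PTZ-3. In the striatum-poor libraries it was higher in PTZ than in Con. by 1.56 (SE 0.12, 2.95-fold, Benjamini-Hochberg adjusted p = 0.0148 from limma) and lower in Q808-2 than in PTZ by a difference of -1.35 (adjusted p = 0.0320). Creld2, of the endoplasmic reticulum list, was the other list gene called for PTZ against Con. (-0.76), and 14 list genes had a negative difference with an unadjusted p under 0.05 against 3 with a positive one. Together these were 17 of 67, where 19.6% of all genes had such a p and most calls were negative (895 of 1532). The 14 included 6 of 14 inducible cytosolic chaperones and 3 of 8 chaperonin subunits, for example Fkbp4 (-0.33), Hspd1 (-0.21) and Cct6a (-0.34), and their median stood at -0.16 and -0.19, beside -0.11 over all genes. Hspa4l, the Hsp110 relative of Hsph1, was the 1 inducible gene with a positive difference at that p (0.41, 1.33-fold). None of the 14 inducible list genes passed, Hspa4l included. Over all genes 9.82% passed, and a list of 14 is too short to tell 0 from that share.

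Between Q808-2 and the striatum-poor PTZ rats, the widest differences among the 67 list genes were those of Dnajb5, Fkbp5, Sdf2l1 and Creld2. The median over the 67 was 0.03, beside 0.16 over all genes. Dnajb5 and the Hsp90 co-chaperone Fkbp5 (-0.68, from 29.9 and 22.8 FPKM in PTZ to 16.2 FPKM) were lower in Q808-2, and Sdf2l1 (0.87) and Creld2 (0.59) were higher. Of the 13 genes of the endoplasmic reticulum list, 5 had a positive difference with an unadjusted p under 0.05 and 0 a negative one, where 15.2% of all genes had such a p and 1265 of 1625 calls were positive, with a median of 0.16, beside 0.16 over all genes. Between Q808-2 and the striatum-poor Con. rats the median over the 67 list genes was -0.06, beside 0.05 over all genes, and Chordc1 differed by -0.37. Hspa1a, the stress-inducible Hsp70, remained low throughout, at 0.26 to 1.22 FPKM in Con., 0.10 to 3.04 FPKM in PTZ and 0.23 to 1.04 FPKM in Q808, and its near-identical copy Hspa1b did not pass the filter on low values. Hsf1 itself measured 12.6 to 15.4 FPKM in Con., 13.4 to 14.5 FPKM in PTZ and 15.2 to 17.6 FPKM in Q808. The most abundant list genes were Hsp90ab1 at a mean of 896 FPKM, Calr at 356 FPKM and Hsbp1 at 267 FPKM, and none of these 3 passed in any comparison.

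**Figure D5:**
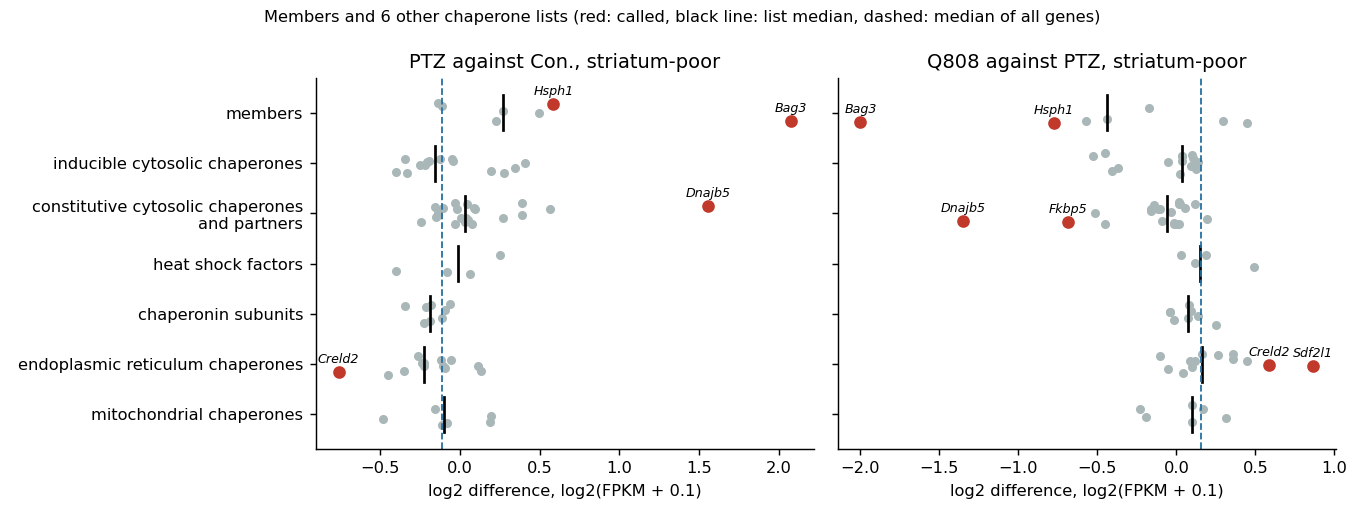
Log2 differences of the 7 members and of 6 chaperone lists within the striatum-poor libraries, for PTZ against Con. (left) and Q808 against PTZ (right). Each point is a gene, red points passed the test, black lines are list medians and the dashed line is the median of all genes at -0.11 and 0.16. Bag3 (2.08 and -1.999) and Dnajb5 (1.56 and -1.35) lie farthest from the dashed line.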

How the data were processed

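Hippocampal RNA of 8 rats (3 Con., 3 PTZ and 2 Q808) was sequenced, and the authors deposited FPKM per gene, computed with Cufflinks after trimming with Trimmomatic. The submitters' processing notes also name HISAT2, Bowtie2, StringTie, SAMtools, HTSeq and DESeq. The genome build was not given in the sources used here, and the authors' read counts were not used here. FPKM do not show the size of their counting error, so whole reads were recovered from the steps of each gene's values (99.9% of tested genes, within 0.005 reads). This gave 12129905 to 16868487 reads per library, and intervals from these reads cover counting error only.

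Groups were taken from the labels. The 15593 genes averaging 0.1 FPKM or more were tested as log2(FPKM + 0.1) with limma 3.58.1 in R (empirical Bayes with trend), in a fit of the 2 groups compared. Calls needed an unadjusted p under 0.05 and over 1.5-fold, after the study's own rule, with Benjamini-Hochberg adjusted p over all genes beside. Libraries whose mean log2(FPKM + 0.1) over 6 striatum markers was under 4 (1 marker is not reported here, and the other 5 give the same sets) were also compared in a single fit of 3 groups, and the difference between sets was an interaction term. The replicate number was also tried as a block. Same-numbered PTZ and Con. libraries deviated together from their group means (r across genes of 0.309, 0.392 and 0.472). Number 3 is the striatum-rich library in both groups, which can raise all 3 values. They therefore cannot show whether the numbers mark pairs.

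The genes named are the 7 members, the called and the most abundant genes of the other lists, and the 6 genes nearest to the members' mean profile. The members and lists were chosen with earlier results of these data known. Alternatives covered the pseudocount, filter, scaling, variance model, covariates, fold limit and single libraries, and limma-voom on the recovered reads was added after the data were seen. The fits were tested on simulated data. Promoter letters were searched with Python in RefSeq windows (GRCr8).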

Additional observations from a re-analysis of the deposited data

Results flagged for a closer look

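For 5 members, the difference between PTZ and Con. was not the same in the striatum-rich library pair (PTZ-3 and Con.-3) as in the striatum-poor libraries, by the interaction term of limma at an unadjusted p under 0.05. Striatum-rich minus striatum-poor, the log2 difference changed by -2.40 for Bag3 (SE 0.35, Benjamini-Hochberg adjusted p = 0.0739), by -1.37 for Hsph1 (SE 0.34, adjusted p = 0.127) and by -0.59 for Hspa8 (SE 0.23, adjusted p = 0.208). It changed by 1.59 for Hsp90aa1 (SE 0.30, adjusted p = 0.101) and by 1.04 for Hspb8 (SE 0.21, adjusted p = 0.107). Of all genes, 22.7% had such a p, and each striatum-rich group is 1 rat. PTZ-3 and Con.-3 differed from the other libraries in tissue markers and PTZ-3 from PTZ-1 and PTZ-2 in the sum of immediate early genes, and their part in these differences was not tested.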

How the results depend on the processing

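The 7 members' log2 differences were recomputed in 623 combinations of comparison and alternative, of which 563 kept both direction and side of the threshold, 25 newly passed, 22 no longer passed and 13 changed sign. Bag3 in the striatum-poor libraries passed in every alternative tried, for the PTZ rats against Con. as for Q808-2 against PTZ. The sign changed for Hspa8 in PTZ against Con. with quantile normalization (-0.11), for Hsp90aa1 in the striatum-poor libraries, PTZ against Con., with median ratio scaling (0.0091), and for Bag3 in the striatum-poor libraries, Q808 against Con., with the replicate block (-0.10). None of these 3 values passed the test. Among the 623 combinations, those that changed only the filter, the trend or the number of groups in the fit leave the log2 difference as it was. Direction was fixed in advance there, and most differences had not passed to begin with.

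For PTZ against Con., 2 members passed with the replicate block and 2 with the striatum set as a term (Hspb1 and Bag3), and 0 at a 2-fold limit. Calls over all genes moved there from 395 to 616 with the block, 672 with the term and 191 at 2-fold. For Q808 against PTZ, 4 members and 8 list genes passed with the replicate block, but calls over all genes rose with it from 300 to 1894. That block pairs the striatum-rich Q808-1 with the striatum-poor PTZ-1. Since Q808 has no number 3, the block gives PTZ-3 no weight in this comparison. Its log2 differences are therefore those found without PTZ-3, such as -1.83 for Bag3, and the block is not a separate alternative to that. The r across genes was -0.439 for number 1 and 0.416 for number 2. With 2 Q808 libraries the deviations mirror each other, so these values cannot show whether the numbers mark pairs. List genes numbered 2 without the filter, and 0 with quantile normalization, median ratio scaling or a 2-fold limit. For Q808 against Con., 0 members passed without the filter, without the trend, with the block or at 2-fold, and 2 with median ratio scaling, and 0 list genes passed without the filter, without the trend, with the striatum term or at 2-fold. With median ratio scaling, calls over all genes in that comparison were 433 higher and 77 lower, beside 479 and 61 in the main fit. The block gives Con.-3 no weight there, so its Hspb1 difference of 0.59 is that found without Con.-3. In the striatum-poor libraries, PTZ against Con., 1 member passed with pseudocount 1, without the filter, without the trend or at 2-fold. Calls over all genes there ranged from 667 to 1680 over the settings that kept every library, beside 1532 in the main fit. For Q808 against PTZ there, with a single Q808 rat, the Bag3 difference ran from -2.18 to -1.93 over these settings. That of Hsph1 ran from -0.93 to -0.73, and its call was lost without the filter, without the trend or at 2-fold. For Q808 against Con. there, the Hspb1 difference ran from 0.73 to 0.87, and its call was lost without the filter or at 2-fold. With the 3-unit motif, 2 promoters matched. The cause of these changes was not tested. The block added Bag3 for PTZ against Con., and Bag3, Hsph1, Dnajb1 and Hspb8 for Q808 against PTZ. It ended the call of Hspb1 for Q808 against Con., added Dnajb1 (-0.77) for Q808 against PTZ in the striatum-poor libraries, and changed no other member's call.

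Leaving out single libraries gave 0 to 2 members for PTZ against Con., 0 to 4 for Q808 against PTZ, 0 to 4 for Q808 against Con., and in the striatum-poor libraries 1 to 2, 1 to 4 and 0 to 1. List genes ranged over 0 to 2, 0 to 5 and 0 to 11. Log2 differences for PTZ against Con. ranged from -0.17 to 0.27 for Hspa8, -0.10 to 0.37 for Dnajb1, -0.19 to 0.46 for Hsph1 and -0.10 to 0.40 for Hspb8, and in the striatum-poor libraries from -0.33 to 0.11 for Hsp90aa1 and -0.0283 to 0.57 for Dnajb1. For Q808 against PTZ they ranged from -0.091 to 0.29 for Hspb1, and for Hsp90aa1 in the striatum-poor libraries from -0.39 to 0.0483.

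Over all genes, the number called moved from 395 to between 191 and 672 for PTZ against Con., from 300 to between 183 and 1894 for Q808 against PTZ and from 540 to between 257 and 1076 for Q808 against Con., and leaving out single libraries moved it to between 249 and 1135, 132 and 1569, and 279 and 1799. Called genes were 212 higher and 88 lower for Q808 against PTZ, and 131 and 140 with quantile normalization. For Q808 against Con. they were 479 and 61, and 285 and 156 with it. With 1 Q808 rat among the striatum-poor libraries and 1 rat per group among the striatum-rich ones, the number of animals limits precision, and for Hspb1, with 69 to 194 reads, counting error adds to it.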
